A study of Mus musculus with 8 samples.

Results

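Peroxisomes shorten very long and branched fatty acids, break down hydrogen peroxide and start the synthesis of ether phospholipids. They are built by peroxins (PEX proteins), which insert membrane proteins and import enzymes that were made in the cytosol. The ether phospholipids called plasmalogens are abundant in myelin, and inherited peroxisomal disorders in people, such as Refsum disease, can damage peripheral nerve myelin. Here, 29 genes were followed in mouse sciatic nerve. They comprise 13 peroxins, 12 genes for the transport and oxidation of fatty acids, 3 enzymes of ether lipid synthesis and catalase. They were picked by name from a table of 53090 genes, and all 29 passed the filter on low counts, as did 17090 genes in all.

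Sciatic nerves were taken at P7 (7 days old) from 4 *Nae1* cKO and 4 control mice, and their total RNA was sequenced after depletion of ribosomal RNA. *Nae1* cKO mice carry Nae1 f/f and a Cre transgene restricted to Schwann cells. The Cre removes exon 4 of *Nae1* there, whereas the other cells of the nerve keep the gene. The controls, labelled WT, are littermates without Cre that carry 1 or 2 floxed alleles, Nae1 f/+ or Nae1 f/f. *Nae1* encodes the regulatory subunit of the enzyme that activates NEDD8, a small protein attached to other proteins. Nothing in the labels says that 2 libraries share an animal, and p-values measure the spread between these libraries.

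Libraries held 12962798 to 13855366 expected counts in *Nae1* cKO nerves and 13508752 to 14766770 in control nerves. *Nae1* itself was at 51.8 ± 6.56 CPM (counts per 1000000 after TMM scaling; mean ± SD, n = 4) in *Nae1* cKO nerves and at 82.9 ± 5.07 CPM (n = 4) in control nerves, with a log2 fold change of −0.68 (SE 0.097, adjusted p = 2.8e-04, edgeR). The summed CPM of 9 Schwann cell lineage markers was 2547 to 2899 in *Nae1* cKO nerves and 3030 to 3284 in control nerves, with 2 of the 9 higher, 3 lower and a median log2 fold change of −0.08. For 13 macrophage markers the sum was 430 to 541 in *Nae1* cKO nerves and 251 to 281 in control nerves (9 higher, none lower). For 12 skeletal muscle markers it was 66.2 to 186 in *Nae1* cKO nerves and 136 to 2187 in control nerves (5 lower), and the highest 2 sums belonged to control nerves L4 and K1. The 6 fibroblast markers summed to 19500 to 21958 CPM in *Nae1* cKO nerves and 15754 to 19859 CPM in control nerves (4 higher), and the 6 endothelial markers to 166 to 199 CPM in *Nae1* cKO nerves and 215 to 269 CPM in control nerves (3 lower). The 5 neuronal markers summed to 3.76 to 6.79 CPM in *Nae1* cKO nerves and 3.18 to 5.62 CPM in control nerves. Of these, *Rbfox3* was at 0 in every nerve, *Snap25* was higher (log2 fold change 1.37, adjusted p = 0.0172, edgeR), *Stmn2* did not pass (−0.26) and the other 2 were too low to test. In whole nerve, fewer cells of a type and less RNA per cell cannot be told apart, and the part of these shifts in the results below was not tested.

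Peroxisomal transcripts were on balance less abundant in *Nae1* cKO nerves. Of the 29 genes, 11 were lower and 2 were higher (edgeR quasi-likelihood test, adjusted p under 0.05), and 16 did not pass. Of all genes tested, 12.3% were lower and 14.1% were higher. The 11 comprised all 3 ether lipid enzymes (*Far1*, *Gnpat*, *Agps*), 4 peroxins (*Pex7*, *Pex19*, *Pex26*, *Pex11g*) and 4 fatty acid genes (*Abcd3*, *Ech1*, *Phyh*, *Hacl1*), and the 2 that rose were *Abcd2* and *Pex11a*. The changes were modest: none of the 29 exceeded 2-fold, a size that 6.75% of all genes tested passed in either direction. The median log2 fold change was −0.22 over the 29 genes and 0.01 over all 17090. In 12 of the 29 all *Nae1* cKO nerves were below all controls, as in 13.7% of all genes, and in 2 all were above, as in 14.9%. Before adjustment, p was under 0.05 for 15 lower and 2 higher genes. The share of all genes at that unadjusted level was not counted, so these counts have no comparison.

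**Figure D1:**
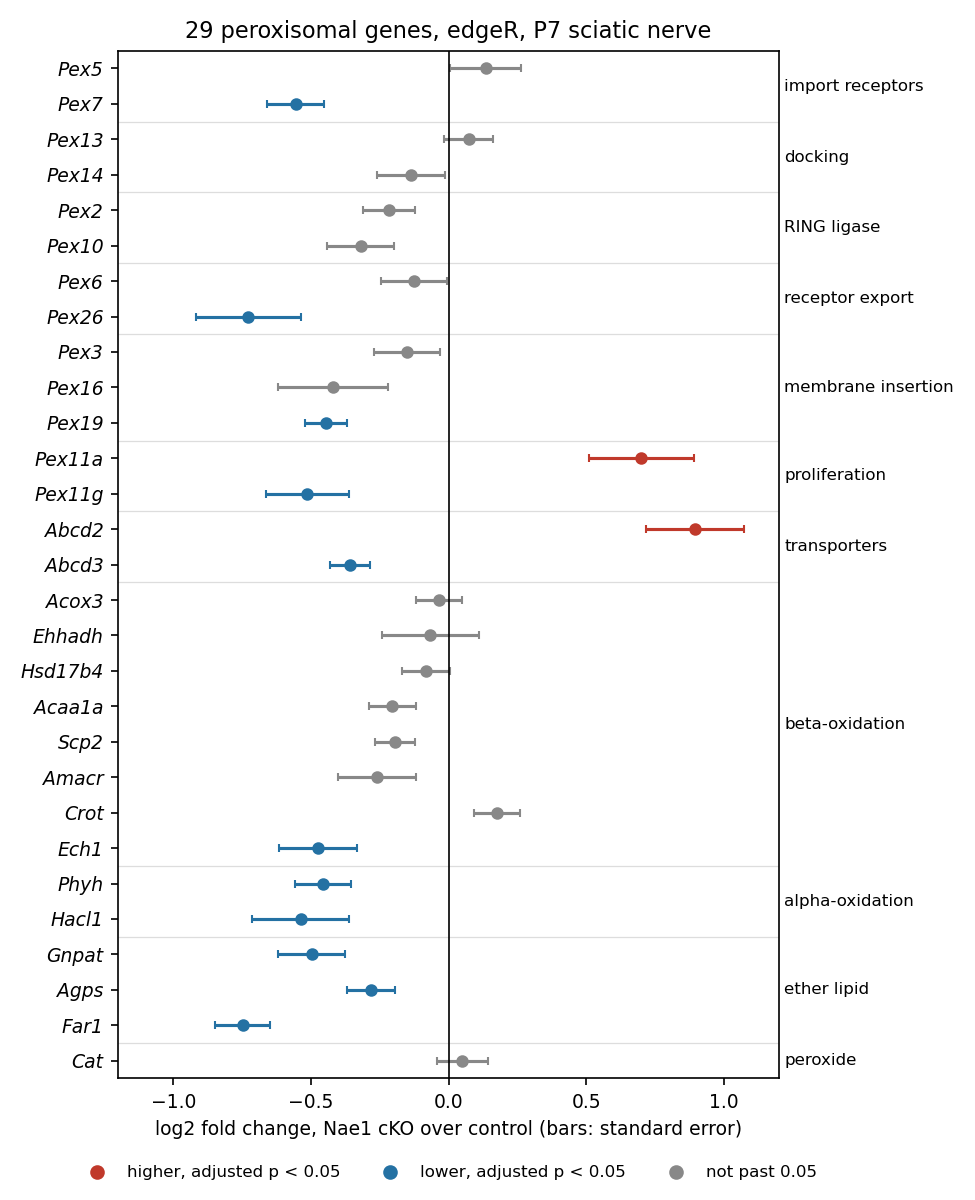
Log2 fold change of Nae1 cKO over control nerves (x axis) for each of the 29 genes (y axis, grouped by role), with the standard error from edgeR as bars. Blue points are the 11 genes lower and red points the 2 genes higher at an adjusted p under 0.05; the ether lipid enzymes all lie left of 0, and Abcd2 (0.90) and Pex11a (0.70) lie farthest to the right.

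The sum over the 29 genes did not overlap between the groups in CPM. It was 1513, 1455, 1527 and 1482 CPM in *Nae1* cKO nerves K2, L1, L5 and L8, against 1916, 1762, 1828 and 2093 CPM in control nerves K1, L3, L4 and L9. The ether lipid enzymes summed to 513 to 582 CPM in *Nae1* cKO nerves and 742 to 955 CPM in control nerves, and the peroxins to 268 to 296 CPM in *Nae1* cKO nerves and 317 to 343 CPM in control nerves. Genes with many counts weigh most in such sums. *Far1* was the largest part of the ether lipid sum, at 270 to 309 CPM in *Nae1* cKO nerves and 446 to 594 CPM in control nerves. *Pex19* was the largest part of the peroxin sum, at 75.2 to 87.6 CPM in *Nae1* cKO nerves and 104 to 118 CPM in control nerves. On the deposited TPM, in contrast, the sums over all 29 overlapped, at 367 to 643 in *Nae1* cKO nerves and 526 to 664 in control nerves. The lowest TPM sum was that of *Nae1* cKO nerve K2, where the noncoding RNA 7SK took 12.7% of all TPM, against 7.76% to 10.2% in the other 7 nerves. Whether the 7SK share has a part in the low sum was not tested. Limma on log2(TPM + 1) called 1 of the 29 genes higher and 0 lower, with 1 lower at an unadjusted p under 0.05. Of all 17090 genes tested, it called 1297 higher and 424 lower. After the TPM were rescaled by median ratios, an alternative chosen after seeing the data, limma called 2 higher and 9 lower. Over all genes tested, that fit gave 1980 higher and 1799 lower. When libraries were scaled to their totals only, the log2 fold change of the median gene of all those tested moved to 0.16 and 75.5% of all calls were in the higher direction, against 53.5% with TMM. Among the 29 genes the same scaling gave 3 higher and 4 lower (*Far1*, *Pex7*, *Pex19* and *Phyh*), with a median of −0.06. Over all genes tested, it gave 3875 higher and 1255 lower.

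Ether lipid synthesis begins in the peroxisome, where GNPAT adds a fatty acid to dihydroxyacetone phosphate, AGPS exchanges it for a fatty alcohol, and FAR1 on the peroxisomal membrane makes that alcohol from fatty acyl-CoA. The transcripts of all 3 were lower in *Nae1* cKO nerves. The stretches around their start sites are shown because these are the genes that fell together, and that of *Pex7*, whose protein imports AGPS, because it alone of the 24 genes with such a window held 2 matches to an antioxidant response core. Each covers 250 bases before to 50 bases after the RefSeq start (GRCm38.p6), 5′ to 3′ on the gene's strand. Capitals mark GGGCGG, the GC box, on either strand in the ether lipid genes, and TGACNNNGC on either strand in *Pex7*.
Far1 (chr7:113513584-113513883, plus strand): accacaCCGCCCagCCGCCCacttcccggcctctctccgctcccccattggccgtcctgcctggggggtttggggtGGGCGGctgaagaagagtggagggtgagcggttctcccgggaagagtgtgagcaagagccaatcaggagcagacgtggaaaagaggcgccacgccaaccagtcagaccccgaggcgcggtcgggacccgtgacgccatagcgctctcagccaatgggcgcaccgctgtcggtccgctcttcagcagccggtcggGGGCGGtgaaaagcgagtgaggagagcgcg
Gnpat (chr8:124862783-124863082, plus strand): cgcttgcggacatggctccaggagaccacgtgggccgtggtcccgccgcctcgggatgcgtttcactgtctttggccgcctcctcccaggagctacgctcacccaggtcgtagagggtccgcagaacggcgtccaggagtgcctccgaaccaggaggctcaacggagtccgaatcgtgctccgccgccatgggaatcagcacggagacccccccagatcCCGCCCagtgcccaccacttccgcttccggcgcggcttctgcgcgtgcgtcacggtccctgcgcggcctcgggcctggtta
Agps (chr2:75831927-75832226, plus strand): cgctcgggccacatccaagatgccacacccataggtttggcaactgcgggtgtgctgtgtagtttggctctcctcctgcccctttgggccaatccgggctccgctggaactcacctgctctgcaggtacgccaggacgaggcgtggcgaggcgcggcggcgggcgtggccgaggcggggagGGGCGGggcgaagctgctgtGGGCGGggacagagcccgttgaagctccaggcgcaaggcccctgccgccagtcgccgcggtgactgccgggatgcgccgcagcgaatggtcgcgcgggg
Pex7 (chr10:19907625-19907924, minus strand): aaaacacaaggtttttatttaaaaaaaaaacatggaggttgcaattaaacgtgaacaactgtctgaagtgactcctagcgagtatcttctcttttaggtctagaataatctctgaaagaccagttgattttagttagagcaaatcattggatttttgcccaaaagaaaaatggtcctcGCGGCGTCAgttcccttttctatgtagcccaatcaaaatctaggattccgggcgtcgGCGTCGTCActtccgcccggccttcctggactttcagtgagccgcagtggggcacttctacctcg

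The windows of *Far1*, *Gnpat* and *Agps* were 67.7%, 68.7% and 71.0% G or C and held 4, 1 and 2 GC boxes, and that of *Pex7* was 44.0% G or C, against a median of 52.7% over 32851 mouse promoters of this length. RefSeq windows were found for 24 of the 29 genes, 28 windows in all since some genes have several starts. The GC box and the CCAAT box, both searched after the values were seen, occurred in 21 (75%) and 11 (39.3%) of the 28 windows and in 35.7% and 37.4% of all promoters. The 28 windows ran from 42.7% to 79% G or C, most of them above the median of all promoters. The GC box holds only G and C, and its share was not compared with promoters of like composition. Some *Pex5* windows overlap, so the same sites were counted again. The antioxidant response core TGACNNNGC occurred in 4 windows (*Pex7*, *Pex11g*, *Ehhadh* and *Scp2*; 14.3%) and in 12.4% of all, and the sterol element TCACNCCAC in that of *Ehhadh* only (3.57%) and in 1.24% of all. The consensus PPAR and RXR response element, a direct repeat of the receptors' core site with 1 base between the copies, was in none of the 28 windows and in 0.0396% of all promoters. At 1 location in *Ehhadh* the sterol and antioxidant matches overlapped. The ether lipid windows held none of these last 3 motifs.

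*Far1* (ENSMUSG00000030759.16, chr7:113513834-113571511) had 270, 301, 309 and 290 CPM in *Nae1* cKO nerves, against 467, 446, 457 and 594 CPM in control nerves. All 4 *Nae1* cKO nerves lay well below the lowest control nerve, and control nerve L9 was the highest. The means were 292 ± 17.0 CPM in *Nae1* cKO nerves and 491 ± 69.0 CPM in control nerves (SD, n = 4 each), and its log2 fold change was −0.75 (SE 0.099, adjusted p = 1.6e-04, edgeR), the lowest of the 29 genes in this fit. *Gnpat* (ENSMUSG00000031985.9, chr8:124863033-124890057) had 46.7, 64.3, 71.7 and 70.0 CPM in *Nae1* cKO nerves, against 84.3, 82.4, 94.3 and 95.8 CPM in control nerves. The groups did not overlap, and *Nae1* cKO nerve K2 was the lowest. Its log2 fold change was −0.50 (SE 0.12, adjusted p = 0.0103, edgeR). *Agps* (ENSMUSG00000042410.15, chr2:75832177-75931350) had 196, 192, 201 and 176 CPM in *Nae1* cKO nerves, against 236, 214, 216 and 266 CPM in control nerves. Its groups lay closer together without overlapping, with a log2 fold change of −0.28 (SE 0.086, adjusted p = 0.0289, edgeR). The *Agps* call was lost when any of *Nae1* cKO nerves L1 or L8 or control nerves K1 or L9 was left out (adjusted p from 0.0640 to 0.0912, edgeR), whereas *Far1* and *Gnpat* kept theirs without any single nerve.

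The later steps take place in the endoplasmic reticulum. *Tmem189* encodes the desaturase that makes the vinyl ether bond of plasmalogens. It had 97.9, 78.4, 92.6 and 89.9 CPM in *Nae1* cKO nerves, against 222, 164, 205 and 203 CPM in control nerves. No *Nae1* cKO nerve came near the control range. Its log2 fold change was −1.14 (SE 0.10, adjusted p = 8.2e-06, edgeR), and of the 7 genes of later plasmalogen steps it alone exceeded 2-fold. Its exons share 21.3% of their bases with those of *Gm20431* on the same strand, so reads could be split between them. *Selenoi*, an ethanolamine phosphotransferase, was also lower, with 134 to 144 CPM in *Nae1* cKO nerves and 193 to 224 CPM in control nerves (log2 fold change −0.58, adjusted p = 8.8e-05, edgeR). *Tmem86a*, which encodes a lysoplasmalogenase that breaks plasmalogens down, was higher at a low level, with 6.20 to 9.03 CPM in *Nae1* cKO nerves and 4.34 to 5.62 CPM in control nerves (log2 fold change 0.57, adjusted p = 0.0244, edgeR). Its call was lost without *Nae1* cKO nerve L5 or control nerves L3 or L4 (adjusted p from 0.0665 to 0.0684, edgeR). The other 4 did not pass, among them the phosphotransferases *Cept1* (0.18) and *Chpt1* (0.05), given as log2 fold changes. Of these 7 genes 2 were lower and 1 was higher, beside 12.3% and 14.1% of all genes tested.

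**Figure D2:**
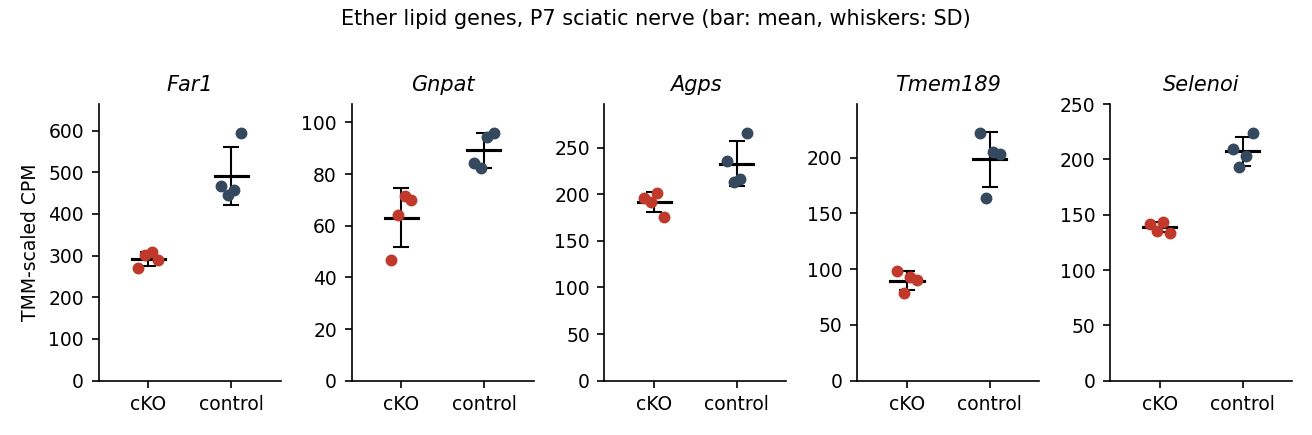
CPM after TMM scaling (y axis, from 0) of the 3 peroxisomal ether lipid enzymes and of Tmem189 and Selenoi in each nerve, Nae1 cKO left and control right, with the mean as a bar and the SD as whiskers (n = 4 each). No Nae1 cKO nerve reaches the control range in any of the 5 panels, and the ratio is lowest in Tmem189 (89.7 ± 8.22 CPM in Nae1 cKO and 198 ± 24.4 CPM in control nerves).

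Among the 13 peroxins 4 were lower and 1 was higher. The soluble enzymes of the peroxisome are imported by 2 receptors, PEX5 and PEX7. Of their transcripts, that of *Pex7* was lower and that of *Pex5* did not pass. *Pex7* (ENSMUSG00000020003.16, chr10:19853900-19907689) had 21.6, 20.2, 20.2 and 17.0 CPM in *Nae1* cKO nerves, against 29.7, 26.4, 28.3 and 31.8 CPM in control nerves. The groups did not overlap, and its log2 fold change was −0.56 (SE 0.10, adjusted p = 0.0017, edgeR). *Pex5* had 42.1, 30.8, 30.7 and 36.0 CPM in *Nae1* cKO nerves, against 37.8, 30.7, 31.4 and 27.2 CPM in control nerves, with fully mixed ranges and a log2 fold change of 0.13 (SE 0.13, adjusted p = 0.485, edgeR). The difference between these 2 genes was not itself tested. Of the known cargoes of PEX7 among the 29 genes, *Agps* and *Phyh* were lower, and the thiolase *Acaa1a* had a log2 fold change of −0.20 and did not pass (adjusted p = 0.105, edgeR).

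PEX19 is the cytosolic chaperone of peroxisomal membrane proteins and hands them to PEX3, while PEX16 helps to bring PEX3 to the membrane. *Pex19* (ENSMUSG00000003464.13, chr1:172126755-172136493) had 87.6, 75.2, 81.2 and 84.0 CPM in *Nae1* cKO nerves, against 118, 104, 115 and 109 CPM in control nerves. The groups were well apart, with a log2 fold change of −0.44 (SE 0.075, adjusted p = 9.1e-04, edgeR). *Pex3* (−0.15, adjusted p = 0.401, edgeR) and *Pex16* (−0.42, SE 0.20, adjusted p = 0.148, edgeR) did not pass. *Pex16* was at 3.97 to 6.76 CPM in *Nae1* cKO nerves and at 5.86 to 9.35 CPM in control nerves, ranges that overlapped.

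PEX26 anchors the ATPase PEX6, which takes part in pulling import receptors back out of the membrane. *Pex26* (ENSMUSG00000067825.11, chr6:121183667-121198837) had 3.81, 6.76, 6.53 and 5.16 CPM in *Nae1* cKO nerves, against 9.86, 8.25, 10.9 and 7.87 CPM in control nerves. The groups did not overlap, at counts of only 51 to 152 a library, and its log2 fold change was −0.73 (SE 0.19, adjusted p = 0.0144, edgeR). *Pex6* had a log2 fold change of −0.13 and did not pass. The docking peroxins *Pex13* (0.07) and *Pex14* (−0.14) and the RING ligase subunits *Pex2* (−0.22) and *Pex10* (−0.32, adjusted p = 0.0763, edgeR) did not pass, although the ranges of *Pex2* and *Pex10* did not overlap, with the *Nae1* cKO nerves below. For *Pex14*, 28.3% of exonic bases lie opposite *Gm17029*, and the strand setting of the counting is not given in the sources used here.

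The PEX11 family elongates the peroxisomal membrane before division, and its 2 genes among the 29 went opposite ways. *Pex11a* (ENSMUSG00000030545.9, chr7:79735957-79743131) had 5.22, 4.32, 3.94 and 4.81 CPM in *Nae1* cKO nerves, against 2.26, 2.75, 3.59 and 2.62 CPM in control nerves. Every *Nae1* cKO nerve lay above every control nerve, and its log2 fold change was 0.70 (SE 0.19, adjusted p = 0.0168, edgeR). Counts were only 31 to 70 a library, and without control nerve K1 the value was 0.61 with an adjusted p of 0.0543 (edgeR). *Pex11g* (ENSMUSG00000069633.12, chr8:3457105-3467680) had 6.12, 6.48, 7.61 and 5.58 CPM in *Nae1* cKO nerves, against 8.84, 8.25, 11.0 and 8.74 CPM in control nerves. The groups did not overlap, and its log2 fold change was −0.51 (SE 0.15, adjusted p = 0.0241, edgeR). It lost its call without *Nae1* cKO nerves L1 or L8 or control nerve L4 (adjusted p from 0.0519 to 0.0811, edgeR), and 41.1% of its exonic bases lie opposite *Gm44775*. None of the 5 division genes tested passed (edgeR), and 1 of them, the dynamin-related GTPase *Dnm1l*, had an unadjusted p under 0.05 (log2 fold change 0.26, adjusted p = 0.0524) and passed in 9 of 21 alternatives, DESeq2 among them.

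**Figure D3:**
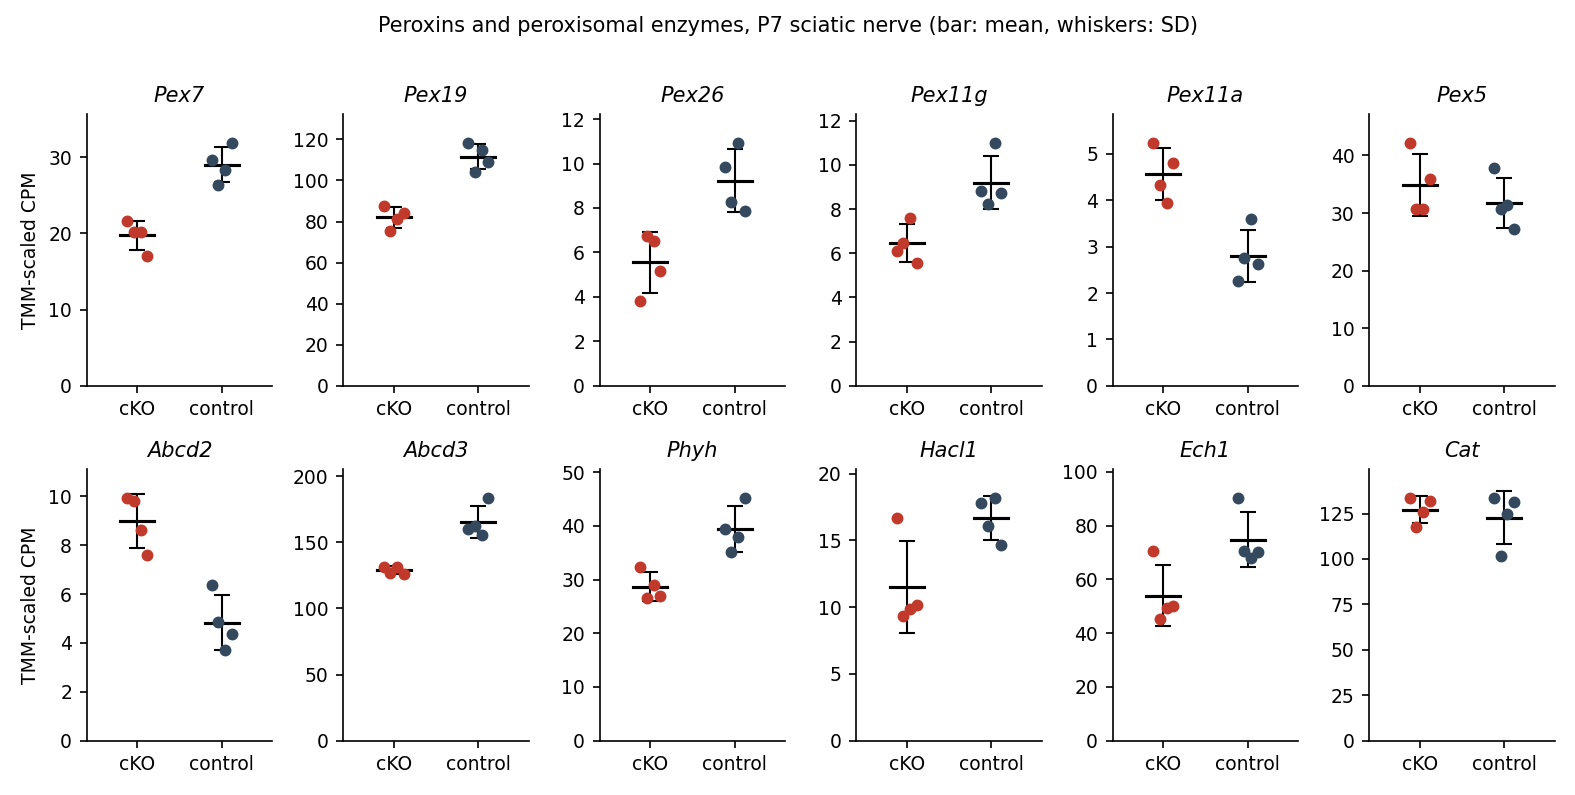
CPM after TMM scaling (y axis, from 0) in each nerve, Nae1 cKO left and control right, for 6 peroxins (top row) and 6 genes of fatty acid and peroxide metabolism (bottom row), with the mean as a bar and the SD as whiskers (n = 4 each). Pex11a and Abcd2 are higher in Nae1 cKO nerves, Pex5 and Cat show mixed ranges, and in Hacl1 and Ech1 nerves K2 and K1 stand above the rest of their groups.

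Of the 12 fatty acid genes 4 were lower and 1 was higher. Fatty acyl-CoA enters the peroxisome through ABC transporters of subfamily D, and the 2 measured here moved apart. *Abcd2* (ENSMUSG00000055782.8, chr15:91145871-91191799), which carries very long-chain and polyunsaturated species, had 9.93, 9.82, 8.63 and 7.60 CPM in *Nae1* cKO nerves, against 6.36, 4.85, 3.73 and 4.37 CPM in control nerves. The groups did not overlap, and its log2 fold change was 0.90 (SE 0.18, adjusted p = 0.0028, edgeR), the largest rise of the 29. It kept its call in all 21 alternatives and also on deposited TPM, where its groups did not overlap (1.23 ± 0.346 TPM in *Nae1* cKO nerves and 0.585 ± 0.0737 TPM in control nerves; p = 0.0286 in an exact two-sided permutation test, which with 4 against 4 can go no lower). Without control nerve K1 it exceeded 2-fold (log2 fold change 1.06). *Abcd3* (ENSMUSG00000028127.10, chr3:121758774-121815302), which carries branched and dicarboxylic species, had 131, 127, 132 and 126 CPM in *Nae1* cKO nerves, against 160, 162, 156 and 183 CPM in control nerves. The *Nae1* cKO nerves were within a narrow band under all controls, and its log2 fold change was −0.36 (SE 0.073, adjusted p = 0.0031, edgeR).

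The alpha-oxidation of phytanic acid, a branched fatty acid from the diet, uses PHYH and then HACL1. *Phyh* (ENSMUSG00000026664.7, chr2:4919019-4938730), the gene mutated in most people with Refsum disease, had 32.3, 26.5, 28.9 and 27.0 CPM in *Nae1* cKO nerves, against 39.4, 35.1, 37.9 and 45.1 CPM in control nerves. The groups did not overlap, with a log2 fold change of −0.46 (SE 0.10, adjusted p = 0.0057, edgeR). *Hacl1* had 16.6, 9.34, 9.86 and 10.2 CPM in *Nae1* cKO nerves, against 17.8, 16.1, 18.1 and 14.6 CPM in control nerves. Nerve K2 of the *Nae1* cKO group lay inside the control range and the other 3 lay below it. Its log2 fold change was −0.54 (SE 0.18, adjusted p = 0.0420, edgeR), and the call was lost in 6 of the 8 fits that left out a nerve (*Nae1* cKO L1, L5 or L8, control K1, L3 or L4; adjusted p from 0.0653 to 0.119, edgeR). *Hacl1* shares 31.1% of its exonic bases with *Gm49387* on the same strand, so its counts are uncertain.

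Of the beta-oxidation enzymes and their helpers, *Ech1* alone passed. ECH1 is an isomerase for unsaturated fatty acids that is found in peroxisomes and mitochondria. It had 70.6, 45.4, 49.2 and 50.2 CPM in *Nae1* cKO nerves, against 90.1, 70.4, 68.1 and 70.3 CPM in control nerves. *Nae1* cKO nerve K2 overlapped the controls, and control nerve K1 was above all others. Its log2 fold change was −0.47 (SE 0.14, adjusted p = 0.0274, edgeR), and the call was lost without *Nae1* cKO nerves L1, L5 or L8 or control nerve K1 (adjusted p from 0.0772 to 0.0812, edgeR). Within the nerves whose names begin with L it was −0.53 (adjusted p = 4.1e-04, edgeR), and on deposited TPM the groups did not overlap (36.9 ± 2.27 TPM in *Nae1* cKO nerves and 47.5 ± 3.12 TPM in control nerves, n = 4 each; p = 0.0286, exact two-sided permutation test).

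The core enzymes did not pass. The log2 fold changes were −0.03 for the branched-chain oxidase *Acox3*, −0.07 for the bifunctional enzyme *Ehhadh*, −0.08 for its counterpart *Hsd17b4* and −0.26 for the racemase *Amacr*. *Crot*, which makes carnitine esters of the shortened chains for export, was at 43.8 to 50.8 CPM in *Nae1* cKO nerves and 39.6 to 45.4 CPM in control nerves (0.18, adjusted p = 0.151, edgeR). *Scp2*, whose products are a thiolase and a sterol carrier, had 93.1, 83.3, 89.0 and 92.1 CPM in *Nae1* cKO nerves, against 104, 95.3, 99.7 and 109 CPM in control nerves. Its groups did not overlap, but the log2 fold change of −0.19 did not pass in edgeR (adjusted p = 0.0708), and it passed without *Nae1* cKO nerve K2 (adjusted p = 0.0365, edgeR) and in DESeq2. *Acaa1a* has a close copy, *Acaa1b*, and their summed CPM was 47.9 to 59.2 in *Nae1* cKO nerves and 59.2 to 65.2 in control nerves.

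Catalase, which breaks down hydrogen peroxide, did not pass. *Cat* had 133, 117, 126 and 132 CPM in *Nae1* cKO nerves, against 133, 101, 125 and 131 CPM in control nerves. The ranges overlapped, with control nerve L3 the lowest, and its log2 fold change was 0.05 (SE 0.093, adjusted p = 0.734, edgeR).

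Levels between genes can be compared only per unit of length, and the deposited TPM was used for this. *Far1* was the most abundant of the 29, at 88.2 ± 28.2 TPM in *Nae1* cKO nerves and 126 ± 22.5 TPM in control nerves (SD, n = 4 each). *Scp2* came next, at 70.0 ± 9.87 TPM in *Nae1* cKO nerves and 69.7 ± 3.98 TPM in control nerves. In *Nae1* cKO nerves the spread of the *Far1* values reached those of *Scp2*. *Cat*, *Ech1*, *Pex19*, *Agps* and *Abcd3* followed between 31.7 and 38.4 TPM in *Nae1* cKO nerves and between 33.8 and 47.5 TPM in control nerves, and these neighbours did not differ beyond their spread in *Nae1* cKO nerves. At the low end of the control nerves stood *Abcd2* and *Pex11a*, the genes that rose, at 0.585 and 1.01 TPM. In *Nae1* cKO nerves they were at 1.23 and 1.76 TPM, and *Pex26* (1.32 TPM) and *Amacr* (1.59 TPM) lay between them. By level, *Abcd2* thus remained far below *Abcd3*, which was at 31.7 ± 7.76 TPM in *Nae1* cKO nerves and 35.7 ± 4.46 TPM in control nerves.

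**Figure D4:**
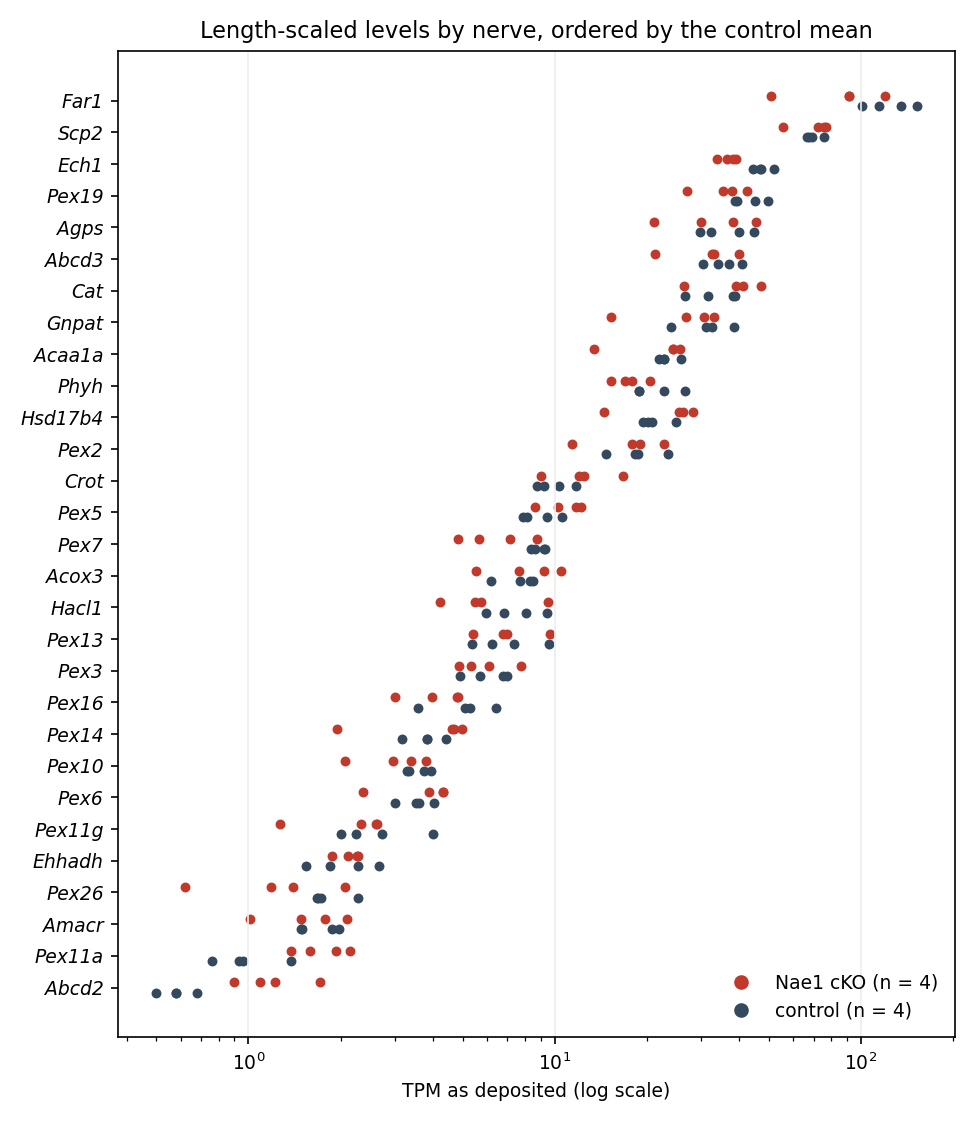
Deposited TPM (x axis, log scale) of the 29 genes (y axis, ordered by the control mean) in each nerve, Nae1 cKO in red above control in dark blue (n = 4 each). Mean levels run from Abcd2 (1.23 TPM in Nae1 cKO and 0.585 TPM in control nerves) to Far1 (88.2 TPM in Nae1 cKO and 126 TPM in control nerves), and the lowest red point of most genes is nerve K2.

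Other peroxisomal genes, outside the 29, were examined next. Of 47 listed, 33 could be tested, and 11 were lower and 2 higher, beside 12.3% and 14.1% of all genes tested, with a median log2 fold change of −0.18. The lower ones included *Mpv17l* (8.08 to 12.9 CPM in *Nae1* cKO nerves and 16.4 to 19.7 CPM in control nerves; −0.93, adjusted p = 7.0e-04), *Acad11* (−0.52, adjusted p = 0.0029) and the membrane protein *Pxmp4* (−0.54, adjusted p = 0.0049), all from edgeR. The 2 higher ones were *Pecr*, a trans-2-enoyl-CoA reductase (0.61), and *Eci2*, an enoyl-CoA isomerase (0.32), named after their values were seen. Fatty acid oxidation in mitochondria is the most alike pathway. Of its 19 genes 3 were higher, a share near the 14.1% of all genes tested, and none was lower in edgeR, with 1 lower at an unadjusted p under 0.05 and 1 lower in DESeq2, and with a median log2 fold change of 0.01. *Cpt1a*, which commits fatty acids to mitochondrial oxidation, had 138, 125, 140 and 145 CPM in *Nae1* cKO nerves, against 103, 96.9, 100 and 95.3 CPM in control nerves. Its groups were well apart (0.47, SE 0.072, adjusted p = 4.3e-04, edgeR). *Decr1* (0.26) and *Acadl* (0.32) passed narrowly and lost their calls without 3 and 6 of the 8 nerves, *Decr1* without L8, K1 or L3 and *Acadl* without K2, L1, L8, K1, L3 or L9 (adjusted p from 0.0502 to 0.116, edgeR). The difference between these lists was not tested.

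**Figure D5:**
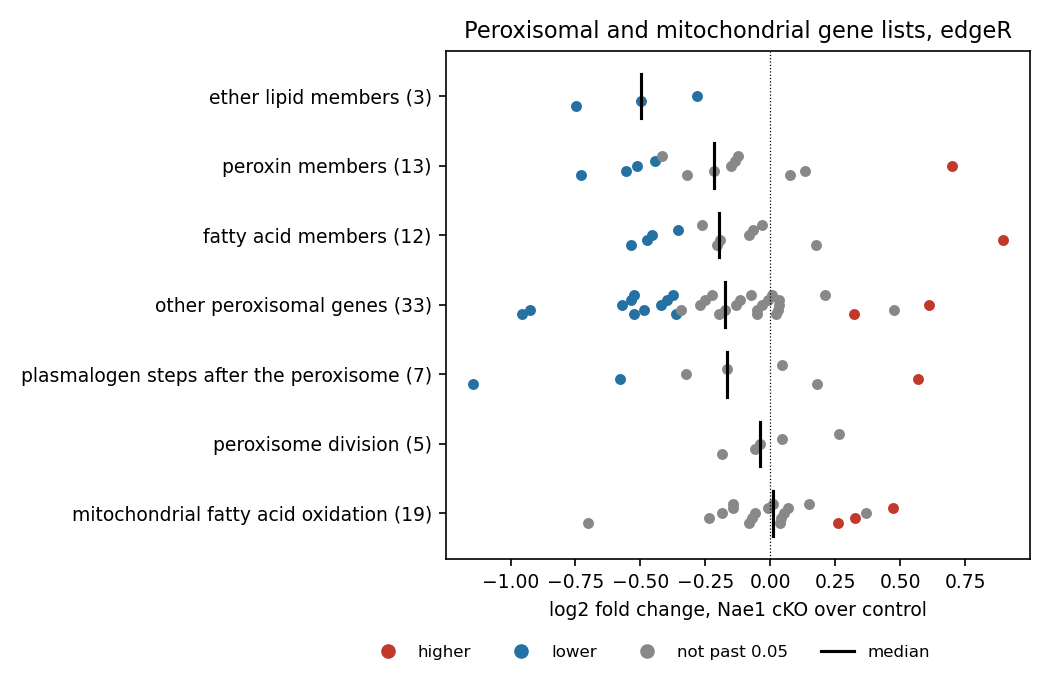
Log2 fold change of Nae1 cKO over control nerves (x axis) for each tested gene of 7 lists (y axis, number of genes in brackets), with black lines at the list medians. Blue points are lower and red points higher at an adjusted p under 0.05; the 33 other peroxisomal genes have 11 blue and 2 red points, and the 19 mitochondrial genes none and 3.

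The receptors that drive peroxisomal genes in liver were also examined. *Ppara* was at 1.70 to 2.37 CPM in *Nae1* cKO nerves and at 2.32 to 3.94 CPM in control nerves, ranges that overlapped slightly. Its log2 fold change of −0.67 passed narrowly (SE 0.22, adjusted p = 0.0457, edgeR) and was lost in 15 of 21 alternatives, among them DESeq2 and all fits without 1 nerve except those without *Nae1* cKO K2 or control L3. *Ppard* (−0.14), *Pparg* (0.09) and the coactivator *Ppargc1a* (0.13) did not pass. Of their RXR partners *Rxrg* (0.58, adjusted p = 0.0087) and *Rxra* (0.33, adjusted p = 0.0159) were higher and *Rxrb* (−0.38, adjusted p = 0.0127) was lower, all from edgeR. The *Rxra* call was lost without *Nae1* cKO nerve L5 or control nerve L3 (adjusted p of 0.0611 and 0.0516, edgeR). In *Rxrg* every *Nae1* cKO nerve (15.2 to 19.6 CPM) lay above every control nerve (9.06 to 13.6 CPM).

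Leaving out K1 and L4, the control nerves richest in muscle RNA, kept 2 controls. Of the 17749 genes then tested, 1129 were lower and 1273 were higher. In that fit *Far1*, *Pex7*, *Pex19*, *Abcd3* and *Phyh* were still lower and *Abcd2* still higher, and the *Far1* log2 fold change was −0.84 (adjusted p = 0.0020, edgeR). *Gnpat* (−0.50, adjusted p = 0.0765), *Agps* (−0.33, adjusted p = 0.0827) and *Pex26* (−0.54, adjusted p = 0.183) then no longer passed, all from edgeR. Calls were also lost for *Pex11g* (−0.40, adjusted p = 0.198), *Ech1* (−0.39, adjusted p = 0.161), *Hacl1* (−0.42, adjusted p = 0.284) and *Pex11a* (0.76, adjusted p = 0.0534), again from edgeR. Among the nerves whose names begin with L, 3 of each genotype, 11 of the 29 genes were lower and 1 was higher. Of the 17146 genes tested there, 2151 were lower and 2394 were higher.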

How the data were processed

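Total RNA of sciatic nerves from 4 *Nae1* cKO and 4 control mice (WT in the labels) was sequenced from stranded, ribosome-depleted libraries. Each nerve has an RSEM gene table, in which the authors deposited expected counts (fragments assigned to a gene by estimation, with no scaling), TPM (summing to 1000000) and FPKM (divided by length and depth). According to the submitters' processing notes, reads were checked with FastQC 0.11.5 and handled with STAR and RSEM on GRCm38, while the study's methods name TopHat for alignment and Cuffdiff, which was not run here because it needs aligned reads. Expected counts were rounded, filtered with filterByExpr (17090 of 53090 genes) and compared with edgeR 4.0.16 (TMM, robust quasi-likelihood test, Benjamini-Hochberg over all genes, no covariates, adjusted p under 0.05). CPM was used within genes and TPM between genes. Pairs of nerves of 1 group differed by 4.08 to 56.6 times sampling noise (chi-square per gene), so no pair was 1 library sequenced again. This measure cannot tell whether 2 libraries came from the same animal. Pairs of *Nae1* cKO nerves with K2 gave 42.2 to 56.6, those without it 4.08 to 9.71, and control pairs 12.4 to 25.4. Of the expected counts of K2, 4.70% were 7SK and 1.54% were mitochondrially encoded. Nerves L1, L5 and L8 had 1.94% to 2.43% and 3.08% to 3.13%, and control nerves 1.97% to 2.66% and 2.19% to 4.23%. The common biological coefficient of variation was 0.158.

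The 29 genes and all lists were chosen with earlier results of these data known. All 29 are named, with *Nae1*, *Ppara*, *Ppard*, *Pparg* and *Ppargc1a*, and up to 4 genes of each other list with the smallest adjusted p. A gene that this rule gives is not reported here. Alternatives were DESeq2 1.42.0, limma 3.58.1 (voom, and log2 of TPM or FPKM plus 1 or 0.1), 2 other scalings, 2 other filters, the letter of the sample name, and each nerve left out. Limma on TPM after median-ratio scaling was added after seeing the data. Gene positions come from GENCODE vM21 (GRCm38; 52403 of 53090 identifiers matched) and promoters from RefSeq (GRCm38.p6). The fit was tested on simulated counts.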

Additional observations from a re-analysis of the deposited data

Results flagged for a closer look

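Of 106 groups of 4 nerves examined, 3 held 1 nerve far from the other 3 (a gap to the nearest of them that passed Dixon's 95% limit as a share of the group's range), and chance alone flags about 1 group in 20. In the *Nae1* cKO group, nerve K2 had 16.6 CPM of *Hacl1*, and the other 3 lay between 9.34 and 10.2 CPM. *Ech1* was at 90.1 CPM in control nerve K1, against 68.1 to 70.4 CPM in the other controls. *Far1* was at 594 CPM in control nerve L9, against 446 to 467 CPM in the other controls, all of them above the *Nae1* cKO nerves.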

How the results depend on the processing

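No paired analysis was possible because the groups share no replicate numbers. The main counts, 11 of 29 genes lower and 2 higher, were within 1.5 times under DESeq2 (12 lower), limma-voom, DESeq2 size factors, both other filters on low counts and the letter of the sample name as a term. Limma on TPM after median-ratio scaling, added after seeing the data, gave 9 lower and 2 higher. Fewer genes were lower with library totals (4), log2(TPM + 1) (0), log2(FPKM + 1) and log2(FPKM + 0.1) (2 each), and without control nerves K1 and L4 (5). Lower calls over all genes tested fell as well, from 2099 to 1255 with library totals and 424 with log2(TPM + 1). They fell to 1035 with log2(FPKM + 1), 1029 with log2(FPKM + 0.1) and 1129 without control nerves K1 and L4. Only 1 gene was higher with log2(TPM + 1), with the L nerves alone and without control nerves K1 and L4. Of all genes tested, 1297, 2394 and 1273 were higher in these fits, against 2411 in the main fit. *Abcd2* alone exceeded 2-fold with library totals and with the L nerves alone, which made 1 gene in place of 0. Without 1 nerve, 7 (*Nae1* cKO L1 or L8 left out) to 12 genes were lower, 1 (control K1 left out) to 2 were higher, and 0 to 1 (control K1 left out) exceeded 2-fold. Over all genes tested, the fits without 1 nerve gave 1644 to 2504 lower and 1939 to 2723 higher. In the 5 other lists 23 genes passed, against 2 with log2(TPM + 1), 9 without control nerves K1 and L4, and 14 to 26 without 1 nerve. The scaling shift with library totals (75.5% of calls higher) was also present with log2(TPM + 1) (75.4%) and with both FPKM fits (76.4%), where the median of all genes was 0.10 to 0.16; the cause was not tested. *Nae1* was at −0.44 with log2(TPM + 1) and did not pass (adjusted p = 0.266, limma), and at −0.74 to −0.61 without 1 nerve.

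Of the genes named, 13 changed sign in at least 1 alternative, and none of them had passed in the main comparison. Their log2 fold changes after the change were as follows. With log2(FPKM + 1), *Pex3* was at 0.0060, *Pex6* at 0.056, *Pex14* at 0.037, *Acox3* at 0.091, *Ehhadh* at 0.065, *Hsd17b4* at 0.13, *Scp2* at 0.025, *Fis1* at 0.064 and *Ppard* at 0.089. With log2(FPKM + 0.1), *Pex3* was at 0.0062, *Pex6* at 0.066, *Pex14* at 0.039, *Acox3* at 0.098, *Ehhadh* at 0.085, *Hsd17b4* at 0.13, *Scp2* at 0.025, *Fis1* at 0.067 and *Ppard* at 0.12. With library totals, *Pex6* was at 0.032, *Pex14* at 0.021, *Acox3* at 0.12, *Ehhadh* at 0.084, *Hsd17b4* at 0.075, *Fis1* at 0.085 and *Ppard* at 0.0074. With log2(TPM + 1), *Pex6* was at 0.036, *Pex14* at 0.025, *Acox3* at 0.065, *Ehhadh* at 0.034, *Hsd17b4* at 0.10, *Fis1* at 0.035 and *Ppard* at 0.060. Without control nerves K1 and L4, *Pex6* was at 0.027, *Pex13* at −0.029, *Acox3* at 0.022, *Mff* at −0.034, *Fis1* at 0.065 and *Ppard* at 0.16. With rescaled TPM, *Pex13* was at −0.11. With the L nerves alone, *Mff* was at −0.033. Without 1 nerve, the ranges over all 8 fits were −0.066 to 2.4e-05 for *Acox3*, −0.21 to 0.027 for *Ehhadh*, −0.033 to 0.091 for *Cat*, −0.029 to 0.095 for *Mff*, −0.24 to 0.022 for *Fis1* and −0.14 to 0.36 for *Pparg*.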
